A study of Mus musculus with 9 samples.

Results

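The 10 genes described here are the thioredoxin genes Txnip, Txn1, Txnrd1 and Srxn1, the NRF2 sensor and factor genes Keap1 and Nfe2l2, and the cytoprotective enzyme genes Nqo1, Hmox1, Gclm and Gclc. They were chosen by name from the 35288 Ensembl identifiers of the count table, Txnip because its response to histone deacetylase inhibitors is well known, and all 10 passed the filter on low counts, as did 13697 genes in all. T15 is a Smarcb1-negative cell line from a murine model of peripheral T-cell lymphoma (PTCL), and all groups were grown in RPMI medium with FBS and β-mercaptoethanol, which is itself a reducing agent. The 9 libraries comprised 3 of control T15 cells, 3 of T15 cells given SAHA (vorinostat, a pan-inhibitor of histone deacetylases) at 1 µM 2 times within 72 h, and 3 of Smarcb1-RE cells. Smarcb1-RE cells carried a lentiviral, Dox-inducible Smarcb1 plasmid (pInd20), were selected with G418 and received Dox at 0.5 µg/µl for 72 h. Vehicle and a control plasmid are both named in the labels, but not which of them the control libraries received, so transduction, selection and Dox cannot be told apart from Smarcb1 in comparisons of Smarcb1-RE cells. The study established several stable clones after selection, and the titles of the Smarcb1-RE libraries do not say whether they came from the same clone. Traits of a clone thus cannot be told apart from Smarcb1 either. Genes were called higher or lower at an adjusted p under 0.05 over all 13697 genes (quasi-likelihood test of edgeR with Benjamini-Hochberg adjustment).

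Thioredoxin is a small protein that reduces disulfides in other proteins and passes electrons to peroxiredoxins. It is kept reduced by thioredoxin reductase at the expense of NADPH and is bound by TXNIP, an alpha-arrestin that also promotes the internalization of glucose transporters. NRF2, the product of Nfe2l2, is held at a low level by KEAP1, which presents it for ubiquitination. When KEAP1 cysteines are modified, NRF2 accumulates and activates genes with antioxidant response elements, among them genes of the thioredoxin and glutathione systems.

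The study describes the 3 libraries of each group as biological replicates. Library totals were between 20900424 and 24941408, so that 3 counts, taken as the limit of detection, corresponded to 0.123 to 0.133 CPM (counting error only). The rounded Smarcb1 counts were 2, 5 and 8 in control, 7, 13 and 3 under SAHA, and 151, 147 and 142 in Smarcb1-RE libraries, which follows the labels. Of 15 T-cell markers, 11 were above 3 counts in every library, including Cd3e, whereas Cd4 was at 0 and Cd2, Cd5 and Thy1 at or near 0. The summed level of 18 markers of other cell types was between 120.4 and 159.3 CPM, mostly from Pecam1, with S100a8 and S100a9 at 0 in every library. Of the 6 that could be tested, 4 were higher and 1 lower in SAHA, where 32.6% of all genes were higher and 34.3% lower. In Smarcb1-RE cells, 3 were higher and 2 lower, against 39.2% and 38.6% of all genes. Those that were higher stood at low levels, and Pecam1 was lower in both (log2 fold changes -0.42 and -0.21). Cd68 was at 1.48 to 1.97 CPM in control and 5.72 to 7.32 CPM in SAHA, Ms4a1 at 0.719 to 0.905 CPM in control and 3.37 to 3.76 CPM in Smarcb1-RE, and Pax5 at most at 0.254 CPM in control, 0.486 to 0.953 CPM in SAHA and 3.79 to 4.07 CPM in Smarcb1-RE libraries. Col1a1 was at most at 0.211 CPM in control, 0.736 to 1.08 CPM in SAHA and 0.469 to 0.487 CPM in Smarcb1-RE libraries, and Epcam rose in SAHA and fell in Smarcb1-RE cells. Their part in the results was not tested, and in bulk RNA fewer expressing cells and less RNA per cell cannot be told apart. Control replicate 1 stood apart from the other control libraries (chi-square per gene 12.5 and 14.1, against 2.07 to 4.55 in the other replicate pairs). Values without it are given for some of the 10 genes and for a list count. For the other genes named, no value without this library is given, and their values may depend on it.

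Promoter sequences were available in the RefSeq table used here (GRCm38.p6) for 8 of the 10 genes, and 5 short motifs were searched on both strands in the 250 bases before the start. The sequences of Txnip and Arrdc4, an alpha-arrestin gene, are shown because both rose in Smarcb1-RE cells, and those of Srxn1 and Txn1 because these abundant genes fell in Smarcb1-RE cells. Capitals mark motif matches, and each sequence runs 5′ to 3′ on the strand of its gene up to the base before the start. Txnip (plus strand) is at chr3:96557707-96557956, Arrdc4 (minus strand) at chr7:68749239-68749488, Srxn1 (plus strand) at chr2:152105274-152105523 and Txn1 (minus strand) at chr4:57956412-57956661.
Txnip: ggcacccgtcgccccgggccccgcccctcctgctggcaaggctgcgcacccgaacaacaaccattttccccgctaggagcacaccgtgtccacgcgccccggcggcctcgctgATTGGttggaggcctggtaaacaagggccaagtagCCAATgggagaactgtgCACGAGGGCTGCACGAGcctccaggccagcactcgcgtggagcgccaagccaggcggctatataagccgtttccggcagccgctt
Arrdc4: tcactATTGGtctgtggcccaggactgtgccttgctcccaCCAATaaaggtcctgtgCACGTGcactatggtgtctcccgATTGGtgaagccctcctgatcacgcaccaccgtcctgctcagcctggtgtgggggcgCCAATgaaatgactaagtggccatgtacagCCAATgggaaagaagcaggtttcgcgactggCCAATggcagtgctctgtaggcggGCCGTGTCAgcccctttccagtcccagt
Srxn1: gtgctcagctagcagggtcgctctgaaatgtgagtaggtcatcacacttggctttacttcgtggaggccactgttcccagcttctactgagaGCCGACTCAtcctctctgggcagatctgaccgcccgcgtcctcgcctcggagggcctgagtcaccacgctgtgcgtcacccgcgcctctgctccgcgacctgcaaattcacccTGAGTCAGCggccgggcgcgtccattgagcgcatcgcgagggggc
Txn1: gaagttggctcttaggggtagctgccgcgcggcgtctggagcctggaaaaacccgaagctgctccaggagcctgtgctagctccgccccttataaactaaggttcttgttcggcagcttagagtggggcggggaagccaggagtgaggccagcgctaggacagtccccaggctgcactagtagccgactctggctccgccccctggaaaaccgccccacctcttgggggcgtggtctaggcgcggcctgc

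The Txnip sequence held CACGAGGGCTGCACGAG at position -85, counted from the start to the leftmost base of the match. This is the form of a carbohydrate response element, here searched as 2 copies of CACGNG separated by 5 bases, the element that MondoA (Mlxip) or ChREBP (Mlxipl) bind together with Mlx in response to glucose metabolites. It was found in 15 of 32817 RefSeq promoters of this length (0.0457%), and in none of the other members' promoters or that of Arrdc4. Txnip also held 2 CCAAT boxes (33.8% of promoters). Arrdc4 held 6 CCAAT boxes, a CACGTG E-box (6.02% of promoters), which is also a form of the CACGNG half-site, and a TGACNNNGC match. TGACNNNGC, the core of the antioxidant response element, was found in 10.2% of promoters. Among the members it had 1 match each before Nfe2l2, Gclm and the second of 3 Txnrd1 starts. Its form with a G, TGAGNNNGC (14.4% of promoters), occurred 2 times before Srxn1, at -158 on the minus strand and at -45 on the plus strand. No match was found in the 250 bases before Txn1, Keap1 or Nqo1, which says only that these letters are not in these windows. The carbohydrate response element form and TGAGNNNGC were added after the data had been seen.

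Txnip was higher in both treatments, most in Smarcb1-RE cells. Its gene (ENSMUSG00000038393) lies on the plus strand of chromosome 3 from 96557957 to 96561883. The TMM-normalized level was 14.6, 16.3 and 14.9 CPM in the control libraries, 19.4, 27.6 and 25.8 CPM in the SAHA libraries and 89.4, 94.1 and 93.9 CPM in the Smarcb1-RE libraries. The 3 groups did not overlap, and SAHA replicate 1 lay closest to control. Txnip was 1.59-fold higher in SAHA (log2 fold change 0.67, standard error 0.11, adjusted p = 0.000122), and 6.06-fold higher in Smarcb1-RE cells (log2 fold change 2.60, standard error 0.10, adjusted p = 1.52e-10). In the direct comparison of the treatments, Txnip was 3.81-fold higher in Smarcb1-RE than in SAHA cells (log2 fold change 1.93, standard error 0.09, adjusted p = 1.3e-09).

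Of the 13697 genes tested, 25.7% had a larger absolute log2 fold change than Txnip in SAHA and 3.77% in Smarcb1-RE cells. The 5 genes whose control-centred log2 CPM was most like that of Txnip over the 9 libraries, out of 11318 considered, were Slc9a9, Cd86, Fam19a3, Hunk and Dmd. Their root-mean-square difference from Txnip was 0.11 for Slc9a9, 0.14 for Cd86 and Fam19a3, 0.18 for Hunk and 0.19 for Dmd. None of these 5 is a gene of the redox lists used here, and the likeness is a description with no test.

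**Figure D1:**
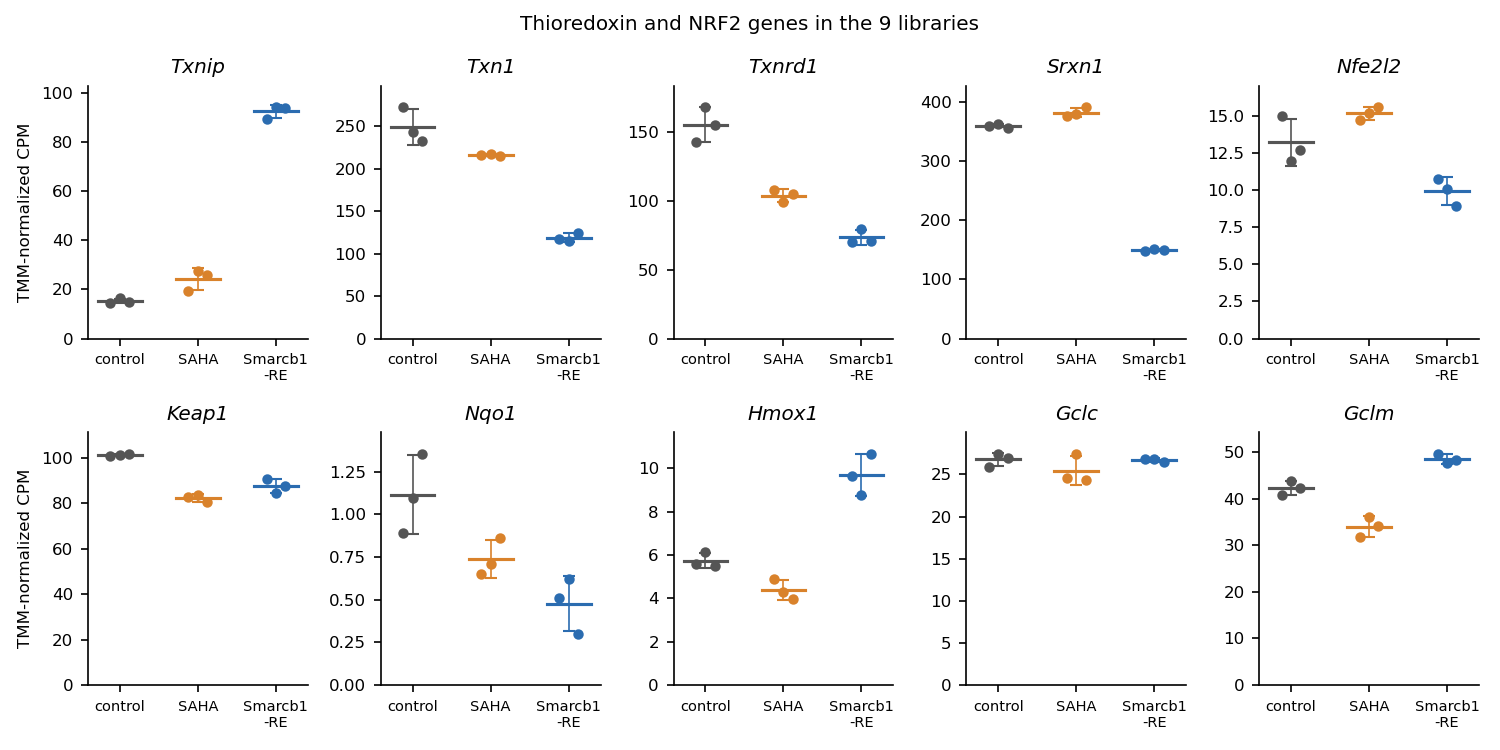
TMM-normalized CPM of the 10 genes in the 9 libraries. Points are libraries in the order of their replicate numbers, horizontal lines are group means and bars are ± 1 SD (n = 3), with a separate linear axis from 0 for each gene. The Smarcb1-RE libraries stand at 89.4 to 94.1 CPM for Txnip and lie below all control libraries for Txn1, Txnrd1, Srxn1, Nfe2l2, Keap1 and Nqo1.

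Txnip is a member of a family of alpha-arrestins, and with it Arrdc4 is a textbook target of MondoA. Of the 8 alpha-arrestin and MondoA-factor genes tested, 7 rose and 1 fell in Smarcb1-RE cells, where 39.2% of all genes tested rose and 38.6% fell, and 4 rose and 3 fell in SAHA cells, where 32.6% rose and 34.3% fell. Arrdc4 had 0.298, 0.380 and 0.247 CPM in control, 0.433, 0.354 and 0.388 CPM in SAHA and 6.74, 6.46 and 6.47 CPM in Smarcb1-RE libraries. Only the Smarcb1-RE libraries stood clear of control, where Arrdc4 had a log2 fold change of 4.39 (standard error 0.20, adjusted p = 8.66e-10). In SAHA, the log2 fold change was 0.34 (standard error 0.28, adjusted p = 0.46), at 6 to 10 counts per library in both groups. The direct comparison of Smarcb1-RE with SAHA gave 4.05 for Arrdc4 (standard error 0.20, adjusted p = 1.48e-09).

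The MondoA-family factors themselves moved less evenly. Mlxip, which encodes MondoA, rose in both treatments (log2 fold changes 0.32 and 0.39 in SAHA and Smarcb1-RE), and its dimer partner Mlx fell in both (-0.23 and -0.53). Mlxipl, which encodes ChREBP, was at 0.247 to 0.719 CPM in control, rose to 6.45 to 9.39 CPM in SAHA and to 1.47 to 2.30 CPM in Smarcb1-RE libraries. Mlxipl was thus higher in SAHA than in Smarcb1-RE cells, the other way round than Txnip, with a direct log2 fold change of Smarcb1-RE against SAHA of -2.05 (standard error 0.24, adjusted p = 6.18e-06). Arrdc3 fell slightly in SAHA (-0.18) and rose in Smarcb1-RE cells (0.35), and Arrdc1 did likewise (-0.37 and 0.14), whereas Arrdc2 rose in both (0.52 and 0.35).

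**Figure D2:**
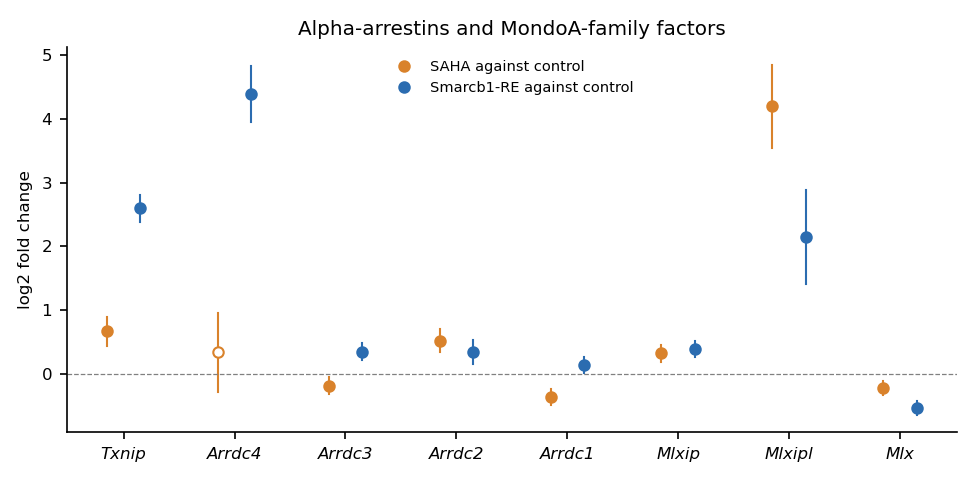
Log2 fold change against control of 8 alpha-arrestin and MondoA-family genes in SAHA and Smarcb1-RE cells. Points are edgeR estimates, filled where the adjusted p was under 0.05, and vertical lines are 95% confidence intervals. Txnip and Arrdc4 were higher in Smarcb1-RE than in SAHA cells, and Mlxipl the other way round.

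Txn1, Txnrd1 and Srxn1, genes of the reducing side of the thioredoxin system, fell in Smarcb1-RE cells. Txn1 (ENSMUSG00000028367, chromosome 4, 57943373 to 57956411, minus strand) encodes cytosolic thioredoxin. Its level was 272.7, 243.1 and 232.3 CPM in control, 215.7, 217.3 and 215.1 CPM in SAHA and 117.0, 115.1 and 124.8 CPM in Smarcb1-RE libraries, with no overlap between groups. Txn1 was 1.15-fold lower in SAHA (log2 fold change -0.21, standard error 0.06, adjusted p = 0.00511) and 2.10-fold lower in Smarcb1-RE cells (log2 fold change -1.07, standard error 0.06, adjusted p = 2.8e-09). Without control replicate 1, which had the highest level, the value in SAHA was -0.14 (adjusted p = 0.00509). Between the treatments, Txn1 was lower in Smarcb1-RE cells by a log2 fold change of -0.86 (standard error 0.06, adjusted p = 2.3e-08).

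Txnrd1 (ENSMUSG00000020250, chromosome 10, 82833951 to 82897712, plus strand) encodes cytosolic thioredoxin reductase, the selenoprotein that recycles thioredoxin. It was measured at 143.0, 168.4 and 155.6 CPM in control, at 107.9, 99.0 and 104.9 CPM in SAHA and at 69.9, 79.5 and 71.2 CPM in Smarcb1-RE libraries. The groups again did not overlap, and the fall was 1.5-fold in SAHA (log2 fold change -0.58, standard error 0.06, adjusted p = 4.56e-06) and 2.12-fold in Smarcb1-RE cells (log2 fold change -1.08, standard error 0.07, adjusted p = 9.28e-09). Between the treatments, the log2 fold change of Txnrd1 was -0.50 (standard error 0.07, adjusted p = 1.68e-05). Eid3, which overlaps Txnrd1 on the same strand, had at most 15 counts in a library.

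Srxn1 (ENSMUSG00000032802, chromosome 2, 152105516 to 152111376, plus strand) encodes sulfiredoxin, which repairs overoxidized peroxiredoxins. Its level was 360.0, 361.7 and 356.4 CPM in control, 375.9, 378.7 and 391.2 CPM in SAHA and 148.2, 150.9 and 149.1 CPM in Smarcb1-RE libraries. The groups did not overlap, and the Smarcb1-RE libraries lay far below the others. Srxn1 was 2.41-fold lower in Smarcb1-RE cells (log2 fold change -1.27, standard error 0.04, adjusted p = 1.61e-11). In SAHA it was called slightly higher (log2 fold change 0.09, standard error 0.03, adjusted p = 0.0395), a call that was lost in 11 of 17 alternatives, including the leaving out of control replicate 2 or 3, of SAHA replicate 2 or 3, or of any Smarcb1-RE replicate (log2 fold change 0.07 to 0.10 over the 9 fits without a library, adjusted p up to 0.219 over all alternatives). Srxn1 was 2.56-fold lower in Smarcb1-RE than in SAHA cells (log2 fold change -1.35, standard error 0.04, adjusted p = 8.51e-12).

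Nfe2l2, the gene of NRF2 (ENSMUSG00000015839, chromosome 2, 75675513 to 75704641, minus strand), was moderately lower in Smarcb1-RE cells. It had 15.0, 11.96 and 12.7 CPM in control, 14.7, 15.2 and 15.6 CPM in SAHA and 10.8, 10.1 and 8.93 CPM in Smarcb1-RE libraries. Control replicate 1 lay among the SAHA libraries, whereas every Smarcb1-RE library lay below the other groups. The log2 fold change was -0.41 in Smarcb1-RE cells (standard error 0.10, adjusted p = 0.00166) and 0.20 in SAHA (standard error 0.09, adjusted p = 0.0759). Without control replicate 1, the value in SAHA was 0.30 and passed the threshold (adjusted p = 0.00756). The direct comparison placed Nfe2l2 1.53-fold lower in Smarcb1-RE than in SAHA cells (log2 fold change -0.61, standard error 0.10, adjusted p = 7.38e-05).

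Keap1 (ENSMUSG00000003308, chromosome 9, 21229730 to 21239361, minus strand), the gene of the NRF2 inhibitor, was lower in both treatments by a small amount. Its level was 100.8, 101.4 and 102.0 CPM in control, 82.8, 83.9 and 80.5 CPM in SAHA and 90.96, 84.6 and 87.5 CPM in Smarcb1-RE libraries, and the groups did not overlap. The log2 fold change was -0.30 in SAHA (standard error 0.04, adjusted p = 2.52e-05) and -0.21 in Smarcb1-RE cells (standard error 0.04, adjusted p = 0.000347). The latter call depended on the scaling. With library totals in place of TMM, the median over all genes tested in Smarcb1-RE cells moved from 0.01 to 0.17, the share of higher genes among those called moved from 50.4% to 61.0%, and the value of Keap1 became -0.05 (adjusted p = 0.26). Relative to the median of all genes, Keap1 was at -0.22 under either scaling. Between the treatments, Keap1 had a log2 fold change of 0.09 (standard error 0.04, adjusted p = 0.06), which passed the threshold in 5 of 17 alternatives, among them library totals (0.25), without control replicate 1 (0.09) and without Smarcb1-RE replicate 2 (0.11).

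Of the known NRF2 targets Nqo1, Hmox1, Gclm and Gclc, Nqo1 fell, Hmox1 and Gclm rose and Gclc was not called in Smarcb1-RE cells. Nqo1 (ENSMUSG00000003849, chromosome 8, 107388225 to 107403206, minus strand), a quinone reductase gene and widely used readout of NRF2, was barely expressed. It had 0.893, 1.10 and 1.36 CPM in control, 0.650, 0.707 and 0.861 CPM in SAHA and 0.512, 0.620 and 0.302 CPM in Smarcb1-RE libraries, from 7 to 33 counts per library. Every Smarcb1-RE library was below every SAHA and control library. Nqo1 was 2.33-fold lower in Smarcb1-RE cells (log2 fold change -1.22, standard error 0.31, adjusted p = 0.00311). In SAHA, the value of -0.59 (95% confidence interval -1.23 to 0.04, adjusted p = 0.092) did not pass the threshold, nor did the -0.63 between the treatments (95% confidence interval -1.34 to 0.09, adjusted p = 0.101).

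Hmox1 (ENSMUSG00000005413, chromosome 8, 75093621 to 75100589, plus strand), the gene of heme oxygenase 1, moved in opposite directions in the treatments. Its level was 5.57, 6.13 and 5.51 CPM in control, 4.90, 4.29 and 3.96 CPM in SAHA and 9.64, 8.76 and 10.7 CPM in Smarcb1-RE libraries. The groups did not overlap. Hmox1 rose 1.69-fold in Smarcb1-RE cells (log2 fold change 0.76, standard error 0.11, adjusted p = 3.85e-05) and fell in SAHA (log2 fold change -0.39, standard error 0.12, adjusted p = 0.0119). The fall in SAHA just missed the threshold without SAHA replicate 3 (log2 fold change -0.32, adjusted p = 0.0505). The difference between the treatments was 2.21-fold (log2 fold change 1.15, standard error 0.11, adjusted p = 1.23e-06).

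Gclc and Gclm encode the catalytic and the modifier subunit of glutamate-cysteine ligase, the rate-limiting enzyme of glutathione synthesis. Gclc (ENSMUSG00000032350, chromosome 9, 77754535 to 77794485, plus strand) was at 25.9, 27.5 and 26.9 CPM in control, 24.5, 27.5 and 24.4 CPM in SAHA and 26.8, 26.8 and 26.5 CPM in Smarcb1-RE libraries. The libraries of all groups overlapped. Its log2 fold changes were -0.07 in SAHA (95% confidence interval -0.20 to 0.05, adjusted p = 0.27) and -0.0032 in Smarcb1-RE cells (95% confidence interval -0.13 to 0.12, adjusted p = 0.961). With library totals, the latter value was 0.16 and passed the threshold (adjusted p = 0.0269), while relative to the median of all genes it was -0.02 under either scaling. Between the treatments, the value was 0.07 (95% confidence interval -0.05 to 0.19, adjusted p = 0.279), and 0.23 with library totals (adjusted p = 0.00331).

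Gclm (ENSMUSG00000028124, chromosome 3, 122245557 to 122270732, plus strand) was at 40.7, 43.9 and 42.4 CPM in control, 31.9, 36.2 and 34.1 CPM in SAHA and 49.8, 47.6 and 48.5 CPM in Smarcb1-RE libraries. Its groups did not overlap, and as for Hmox1 the SAHA libraries were the lowest and the Smarcb1-RE libraries the highest. The log2 fold change was -0.31 in SAHA (standard error 0.05, adjusted p = 0.000192), 0.20 in Smarcb1-RE cells (standard error 0.05, adjusted p = 0.00352) and 0.51 between them (standard error 0.05, adjusted p = 1.63e-06). The Gclm counts are uncertain, because its annotated transcripts share up to 287 bases at 97.9% identity with Ppia, a far more abundant gene with up to 30142 counts in a library, and 244 bases at 100% with the processed pseudogene Gm10123. Ppia fell by 0.61 in SAHA and by 1.10 in Smarcb1-RE cells on the log2 scale, and Gm10123 fell by 0.39 and by 1.00. Gclm thus moved in the same direction as both sequences in SAHA and in the opposite direction in Smarcb1-RE cells, and their part in the Gclm counts was not tested.

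**Figure D3:**
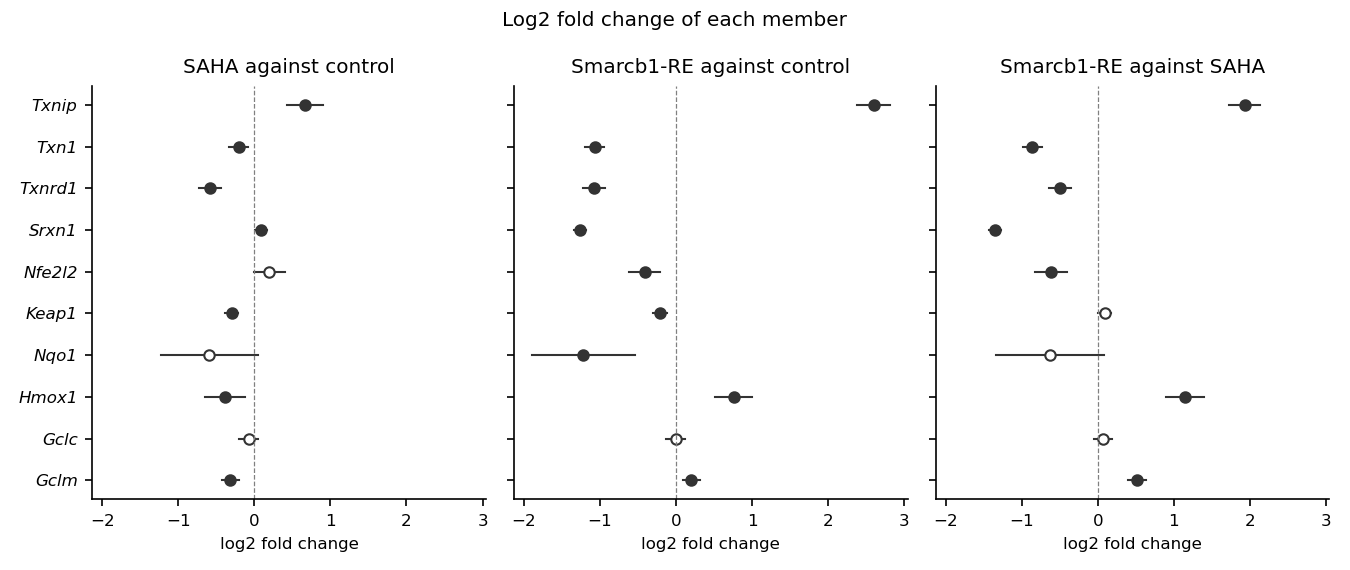
Log2 fold change of the 10 genes in SAHA against control, Smarcb1-RE against control and Smarcb1-RE against SAHA. Points are edgeR estimates, filled where the adjusted p was under 0.05, and horizontal lines are 95% confidence intervals. In Smarcb1-RE cells the values run from -1.27 for Srxn1 to 2.60 for Txnip, and in SAHA from -0.59 for Nqo1 to 0.67 for Txnip.

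Counted together, 2 of the 10 genes were higher and 5 lower in SAHA, where 32.6% of all genes tested were higher and 34.3% lower. In Smarcb1-RE cells, 3 were higher and 6 lower, where 39.2% of all genes were higher and 38.6% lower. Between the treatments, 3 were higher and 4 lower in Smarcb1-RE cells, against 37.7% and 36.8% of all genes. With only 10 genes and so many genes called in each comparison, these counts were not tested against the shares of all genes, and the sizes of the changes were compared next. In Smarcb1-RE cells, 5 of the 10 genes (Txnip, Srxn1, Nqo1, Txnrd1 and Txn1) had an absolute log2 fold change of at least 1, compared with 24.3% of all genes, and in SAHA none had, compared with 13.3%. With library totals the number in Smarcb1-RE cells was 3, compared with 25.1% of all genes, since Txn1 and Txnrd1 were then at -0.91 and -0.92. Their median log2 fold change was -0.25 in SAHA and -0.31 in Smarcb1-RE cells, where that of all genes was 0.00 and 0.01.

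Ratios of counts of 2 genes within a library do not depend on the scaling, and 5 such ratios were formed after the data had been seen. The log2 ratio of Txnip to Txn1 counts was -4.22, -3.90 and -3.96 in control, -3.48, -2.98 and -3.06 under SAHA, and -0.39, -0.29 and -0.41 in Smarcb1-RE libraries. It moved by 0.86 in SAHA and by 3.67 in Smarcb1-RE cells, with no overlap between groups. Txnrd1 to Txn1 was -0.68 in control, -1.06 in SAHA and -0.70 in Smarcb1-RE cells on average, so that in Smarcb1-RE libraries both fell to the same degree and overlapped with control. The ratio of Gclc to Gclm separated the groups in both directions, at -0.66 ± 0.01 (SD, n = 3) in control, -0.42 ± 0.06 in SAHA and -0.86 ± 0.03 in Smarcb1-RE. With TMM, Gclc was not called in any comparison, so this ratio rests on the Gclm counts, which are uncertain because of the sequence shared with Ppia and Gm10123. Keap1 to Nfe2l2 was lowest in SAHA, at 2.44 ± 0.07 against 2.95 ± 0.18 in control and 3.15 ± 0.13 in Smarcb1-RE, of which the latter pair overlapped.

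**Figure D4:**
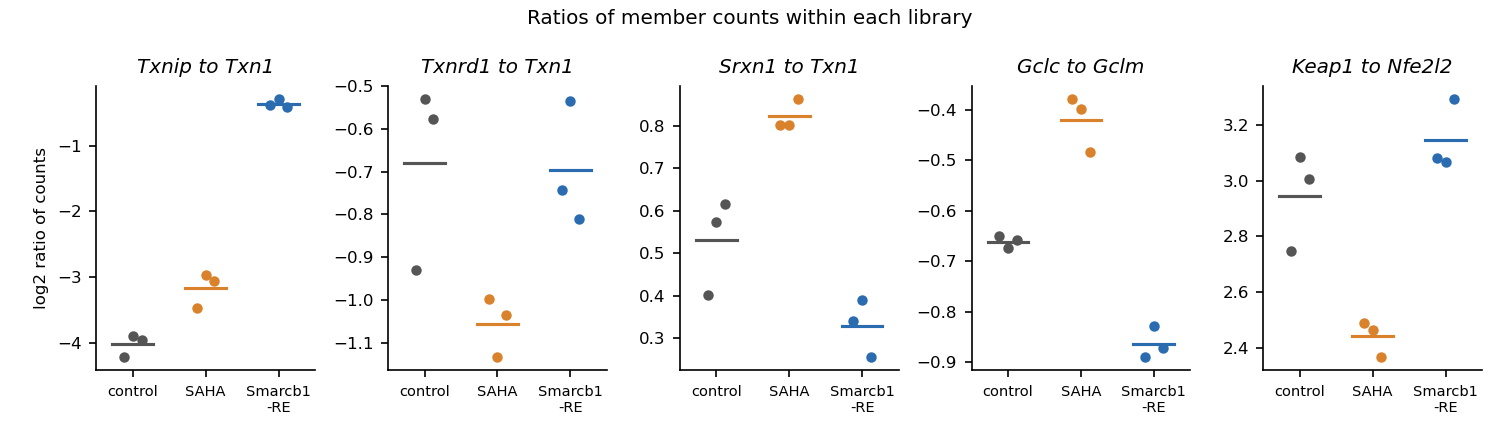
Log2 ratios of the counts of 2 genes in each of the 9 libraries. Points are libraries, horizontal lines are group means, and each panel has its own axis, which does not start at 0. Txnip to Txn1 runs from -4.22 in a control library to -0.29 in a Smarcb1-RE library, whereas the other ratios differ by less than 1 between groups.

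To compare levels between genes, counts were divided by the median transcript length of each gene and scaled to TPM, so that each library has the same sum. In control cells, Txn1 was highest at 405.6 ± 15.1 TPM (SD, n = 3), followed by Srxn1 (219.0 ± 9.29), Txnrd1 (78.0 ± 9.03) and Keap1 (55.2 ± 2.80). Below these were Gclm (22.0 ± 1.68), Gclc (13.4 ± 0.94), Txnip (9.31 ± 0.80), Nfe2l2 (9.13 ± 0.73), Hmox1 (6.27 ± 0.51) and Nqo1 (1.24 ± 0.31), of which Txnip and Nfe2l2 did not differ beyond their spread. In Smarcb1-RE cells, Txnip stood in place 3 at 63.2 ± 2.42 TPM, above Keap1 (53.5 ± 1.38) and Txnrd1 (41.3 ± 3.34) and below Txn1 (217.6 ± 9.32) and Srxn1 (102.1 ± 2.0). In SAHA cells, Txnip was at 14.9 ± 2.58 TPM, between Gclm (17.8 ± 1.06) and Gclc (12.8 ± 0.85), from neither of which it differed beyond the spread. Part of this order depends on the length used. With the union of exons, Gclc lay above Gclm in control (18.6 and 17.6 TPM) and Txnip (12.8 TPM) farther above Nfe2l2 (9.09 TPM), and in SAHA Txnip (20.3 TPM) lay above both Gclc (17.7 TPM) and Gclm (14.2 TPM), and Keap1 above Txnrd1. In Smarcb1-RE cells the order was the same with either length.

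Genes around the 10 were described by lists, which share some genes and also count those of the 10 that belong to them. Without the members, 16 of 21 thioredoxin system genes fell and 3 rose in Smarcb1-RE cells, and 13 fell and 5 rose in SAHA. Of 25 NRF2 target genes that are not members, 15 fell and 6 rose in Smarcb1-RE cells, and 11 fell and 10 rose in SAHA. The counts that follow include the members. Of 25 thioredoxin system genes tested, 19 fell and 4 rose in Smarcb1-RE cells (76.0% lower, against 38.6% of all genes, median log2 fold change -0.66), and 15 fell and 7 rose in SAHA (60.0% lower, against 34.3% of all genes, median -0.25). The 4 that rose in Smarcb1-RE cells included Txnip, Txndc12 (0.55) and Map3k5 (1.92), the gene of the kinase ASK1, which thioredoxin binds and holds inactive. Map3k5 was at 1.18 to 1.40 CPM in control, 1.65 to 2.21 CPM in SAHA and 4.78 to 4.91 CPM in Smarcb1-RE libraries, in the same order as Txnip. Among genes that fell in Smarcb1-RE cells were Txn2, mitochondrial thioredoxin (-0.86), Prdx1, a peroxiredoxin (-0.66), and Msrb2, a methionine sulfoxide reductase (-1.60). Txnrd2, mitochondrial thioredoxin reductase, behaved unlike Txnrd1, with -1.31 in SAHA (adjusted p = 3.68e-08) and a value of 0.04 in Smarcb1-RE cells (adjusted p = 0.651). In SAHA, Nxn (1.01) and Prdx5 (0.94) rose, Msra (-1.76) and Txnl4b (-0.85) fell, and Prdx1 had a value of 0.09 (adjusted p = 0.174). Txnl4a and Txnl4b were listed for their thioredoxin-like names, and these data show no redox role for them. Both count among the falls in each treatment (-0.40 and -0.87 for Txnl4a, -0.85 and -0.32 for Txnl4b, in SAHA and Smarcb1-RE).

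Of 18 KEAP1-NRF2 regulators, 12 fell and 2 rose in SAHA (66.7% lower, against 34.3% of all genes, median -0.24). In Smarcb1-RE cells, 8 fell and 7 rose (median 0.03), which is 44.4% lower and 38.9% higher and near the 38.6% and 39.2% of all genes. Without control replicate 1, the number that rose in SAHA was 4. The NRF2 competitor Bach1 fell in SAHA (-0.40) and rose in Smarcb1-RE cells (0.29), and the related factor gene Nfe2l1 rose in Smarcb1-RE cells (0.96). Of the small MAF partners, Mafg fell in SAHA (-0.30) and had a value of 0.03 in Smarcb1-RE cells (adjusted p = 0.73), while Mafk fell in Smarcb1-RE cells (-0.68) and had a value of 0.12 in SAHA (adjusted p = 0.0838). Maff, at 0.370 to 0.595 CPM in control, rose in both (1.90 in SAHA and 1.24 in Smarcb1-RE). Cul3, the ubiquitin ligase scaffold that KEAP1 binds, fell in both (-0.11 and -0.41), and Sqstm1, whose product sequesters KEAP1, rose in SAHA (0.27) and fell in Smarcb1-RE cells (-0.14). Prmt1, an arginine methyltransferase gene, fell in both (-0.79 and -1.07).

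Of 32 NRF2 target genes tested, 19 fell and 8 rose in Smarcb1-RE cells (59.4% lower, median -0.65), against 38.6% lower among all genes. In SAHA, 15 fell and 11 rose (46.9% lower and 34.4% higher, against 34.3% and 32.6% of all genes, median -0.13). The genes that fell in Smarcb1-RE cells included Gsr, glutathione reductase (-0.96), Fth1, ferritin heavy chain (-0.83), Akr1b3, an aldose reductase (-1.32), and Gstm1, a glutathione transferase (-1.44). Those that rose included Slc7a11, the cystine transporter subunit (1.60, from 0.340 to 1.03 CPM in control to 1.68 to 2.13 CPM), Ephx1, an epoxide hydrolase (1.81), Blvrb, a biliverdin reductase (0.93), and Ftl1, ferritin light chain (0.72). In SAHA, the largest increase of this list was that of Gsta4, a glutathione transferase (4.44, from 0.296 to 0.329 CPM in control to 4.72 to 8.18 CPM), followed by Ephx1 (2.02) and Blvrb (1.55), while Slc7a11 had a value of -0.05 (adjusted p = 0.927).

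NADPH feeds both the thioredoxin and the glutathione reductases. Of 14 NADPH supply genes tested, 10 fell and 2 rose in Smarcb1-RE cells (71.4% lower, against 38.6% of all genes, median -0.61), a number of higher genes that was 4 with library totals. G6pdx, glucose-6-phosphate dehydrogenase, went from 74.5 to 79.6 CPM in control and 84.3 to 87.9 CPM in SAHA to 30.6 to 32.5 CPM in Smarcb1-RE libraries, with a log2 fold change of -1.29 in Smarcb1-RE cells (standard error 0.05, adjusted p = 9.25e-11) and 0.15 in SAHA (standard error 0.04, adjusted p = 0.00783). Tkt, transketolase, fell in both (-1.33 in Smarcb1-RE and -0.50 in SAHA), and Mthfd1, a folate enzyme gene, fell in Smarcb1-RE cells (-1.75). In SAHA, 8 fell and 4 rose (57.1% lower, against 34.3% of all genes, median -0.28), with Mthfd2 (-1.18) and Me2 (-1.01) lowest and Idh1 (1.16) highest.

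**Figure D5:**
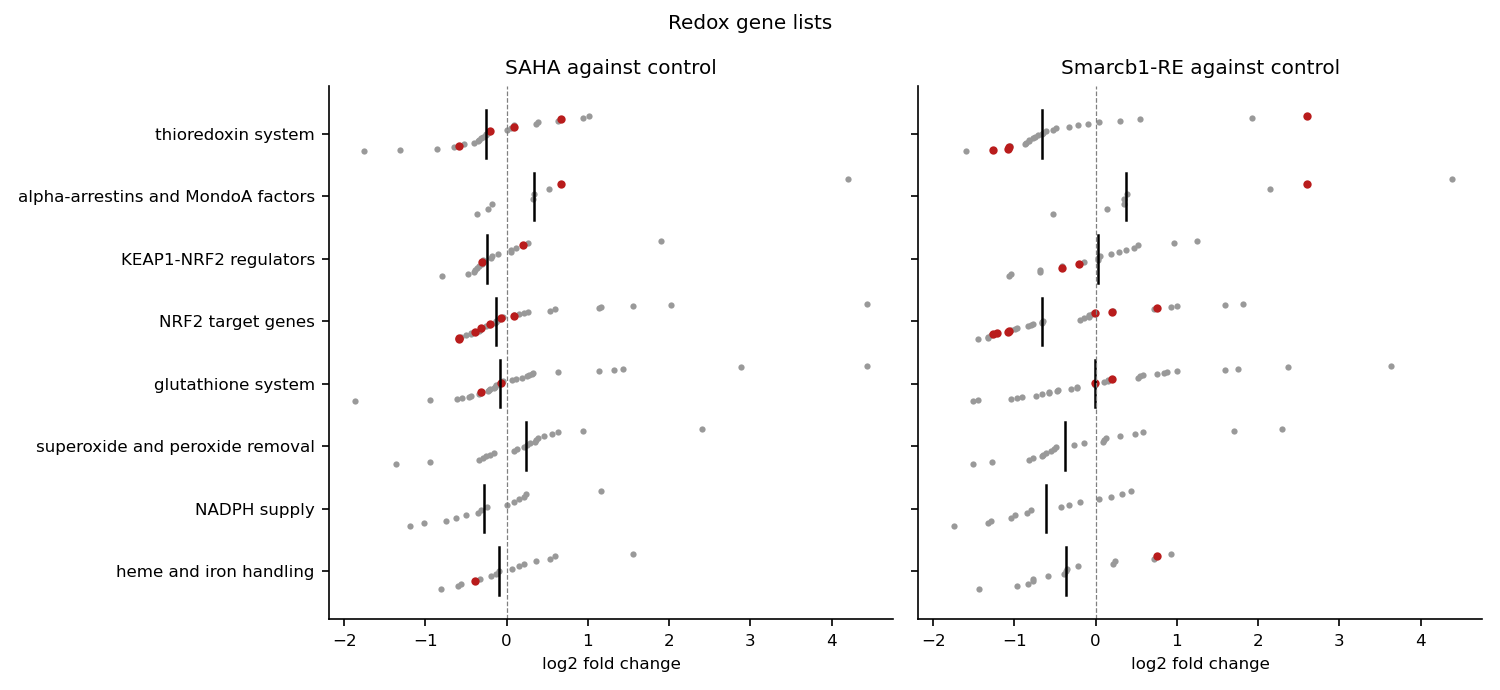
Log2 fold change of each tested gene of 8 redox lists in SAHA and Smarcb1-RE cells against control. Red points are the 10 genes described here, grey points the other genes of the list, spread vertically only to separate them, and black lines the list medians. In Smarcb1-RE cells the medians of the thioredoxin system and NRF2 target lists are -0.66 and -0.65, and Txnip lies at 2.60.

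Of 32 glutathione system genes, 14 fell and 13 rose in Smarcb1-RE cells (median 0.00), and 12 fell and 9 rose in SAHA (median -0.08), close to the shares of all genes. Chac1, whose product degrades glutathione, showed opposite changes, from 8.88 to 9.51 CPM in control to 2.15 to 3.12 CPM in SAHA and 30.5 to 32.4 CPM in Smarcb1-RE libraries (log2 fold changes -1.87 and 1.76, direct comparison 3.62, adjusted p = 1.52e-11). Gpx1, glutathione peroxidase, fell in both treatments (-0.95 and -1.51), and Gpx4, which reduces lipid peroxides, rose in SAHA (0.63). Of 20 genes of superoxide and peroxide removal, 12 fell and 6 rose in Smarcb1-RE cells (60.0% lower, against 38.6% of all genes) and 7 fell and 10 rose in SAHA (35.0% lower and 50.0% higher, against 34.3% and 32.6%). Sod1 (-0.20 and -0.51) and Cat, catalase (-0.34 and -0.65), fell in both, Sod2, the mitochondrial superoxide dismutase, rose in both (0.46 and 0.13), and Sesn3, a sestrin gene, had the largest increases of this list (2.40 and 2.29). Of 15 genes of heme and iron handling, which include Hmox1, 10 fell and 5 rose in Smarcb1-RE cells (66.7% lower, against 38.6% of all genes). In SAHA, 7 of them fell and 6 rose (46.7% lower and 40.0% higher, against 34.3% and 32.6%), so both shares were above those of all genes. Tfrc, the transferrin receptor, fell in Smarcb1-RE cells (-1.43) and rose in SAHA (0.36), and Alas1, the enzyme that starts heme synthesis, fell in both (-0.59 in SAHA and -0.97 in Smarcb1-RE).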

How the data were processed

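RNA was isolated with the RNeasy kit, and libraries (NEBNext Ultra II Directional kit) were read single-end. The authors deposited a table of estimated counts per Ensembl gene for the 9 libraries, neither normalized nor pooled, in which 52.4% of the values above 0 were not whole. The submitters' processing notes name Salmon 0.14.1, DESeq2 1.22.2, FastQC 0.11.8, MultiQC 1.7 and GRCm38 without their order. How reads shared by similar genes were divided is not given in the sources used here.

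Counts were rounded and matched to GENCODE M21 (99.5% of 35288 identifiers). R 4.3.3 with edgeR 4.0.16 was used in a single fit to the 3 groups (TMM, filterByExpr with a minimum count of 10, glmQLFit, glmQLFTest). The fit was tested beforehand on simulated data. These had a fixed spread and a small part of the genes changed in a single group, unlike the real data, so they do not bear on the scaling. The study's tool, DESeq2 (here 1.42.0), was an alternative. Standard errors were computed as |log2 fold change| over the square root of the F statistic. Library totals were 20900424 to 24941408, and the common biological coefficient of variation was 5.24%. Similar transcripts were searched with megablast (at least 90% identity over 200 bases).

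Named are all 10 members, a fixed set of partner genes and the 5 genes most like Txnip. Further genes were picked by rule, up to 3 per list, direction and comparison with control by absolute log2 fold change (average log2 CPM of at least 1). Not every gene picked by this rule is named, and those left out include Ncf4, Cyba, Prdx2, Gstk1, Dpp3, Gstp1, Fech and Nadk. Genes given as family or list members beyond this rule, such as Txnl4a and Maff, were chosen after their values were seen. The members and lists were chosen with earlier results of these data known. Alternatives were median-ratio (RLE) factors, library totals, DESeq2, no filter, at least 10 counts in every library, a fit per pair of groups, the replicate number as a block, an adjusted p under 0.01, an absolute log2 fold change of at least 1 and leaving out each library. List counts under 4 of these, the ratios and 2 of the 5 motifs were added after the data had been seen.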

Additional observations from a re-analysis of the deposited data

How the results depend on the processing

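Over the 10 genes, 3 comparisons and up to 17 alternatives, 481 of 507 log2 fold changes kept their direction and side of the threshold, 14 lost a call, 8 gained a call and 4 changed sign. All 4 sign changes were of Gclc in Smarcb1-RE against control, which was 0.16 with library totals, 0.0525 with at least 10 counts in every library, 0.0008 without control replicate 2 and 0.0014 without Smarcb1-RE replicate 3 (range without each library -0.0316 to 0.0014). The Txnip call held under all 17 alternatives in the 3 comparisons, a minimum fold change not counted, at 0.56 to 0.80 in SAHA, 2.56 to 2.76 in Smarcb1-RE cells and 1.78 to 2.09 between them. The number of members higher in SAHA was 1 with no filter on low counts, with fits to the pair of groups only, with the replicate block and at an adjusted p under 0.01, and between 1 and 3 without each library. With an absolute log2 fold change of at least 1, the members higher and lower in SAHA were 0 and 0, since none reached this size. In Smarcb1-RE against control, 1 was then higher and 4 lower, and in Smarcb1-RE against SAHA, 2 were higher and 1 lower. Of all 13697 genes tested, 2309 were then higher and 928 lower in Smarcb1-RE against control. The numbers were 1582 and 1124 in Smarcb1-RE against SAHA, and 1349 and 322 in SAHA against control. With library totals, 5 were higher in Smarcb1-RE against SAHA, where the share of higher genes among all called moved from 50.6% to 62.1%. Nqo1 was removed by the filter of at least 10 counts in every library. Libraries with the same replicate number did not deviate together on average (mean correlation -0.003, range -0.121 to 0.119, against 0.0012 for different numbers). Because deviations were taken from the means of groups of 3, these averages are tied to each other. The check thus cannot settle whether libraries were paired by number. The replicate block changed no member's call other than that of Srxn1 in SAHA. Of 192 list counts under the added alternatives, 190 stayed within 1.5 times. Genes at a few counts per library, such as Nqo1, Arrdc4 and Slc7a11 in control, are limited by depth.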

Other observations

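Txn1, Prdx1 and Pgd lie on chromosome 4, whose 674 tested genes had a median log2 fold change of 0.29 in Smarcb1-RE against control, 0.39 above the median of the other autosomes. Against that chromosome's median, Txn1 was lower by a log2 difference of -1.36, Pgd by -1.28 and Prdx1 by -0.95, and 2.37% of the 674 genes had a lower value than Txn1. Txnip lies on chromosome 3, where the median of 497 such genes was -0.12 and 99.2% of them had a lower value than Txnip. Sequence copy number was not measured in these libraries, and its part in these values was not tested.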
